A study of Mus musculus with 8 samples.

Results

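The cytosolic ribosomal protein genes encode the protein parts of the ribosome that works in the cytosol, and their mRNA was compared between 2 stages of a mouse acute myeloid leukemia. The members were the rows of the count table whose gene name is Rps or Rpl with a digit, together with Rpsa, Rplp0, Rplp1, Rplp2 and Fau, without the Rps6k kinases, binding proteins (bp), retrotransposed copies (rt), l1 paralogs and pseudogenes (-ps). Of 12823 rows, 107 matched these names, 25 were left out and 82 were members, of which 32 belong to the small subunit, 43 to the large subunit, 3 to the stalk of the large subunit and 4 are paralogs (Rps27l, Rpl3l, Rpl36al and Rpl32l). All 78 genes of the canonical set were in the table, and all 82 members passed the filter on low counts.

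The cells carried the MLL-AF9 fusion gene and coexpressed GFP, which had been introduced together into mouse bone marrow progenitors. New AML denotes GFP+ leukemia cells from the first recipients, which were sublethally irradiated wild-type mice (4 libraries). Aggressive AML denotes cells that arose from these leukemia cells after they had been passed 5 times through non-irradiated recipients (4 libraries). Male mice were used in both groups. Every library therefore holds the same driver and reporter, and both groups go back to the same leukemia cells. The labels name no other treatment and do not give the age of the mice, for which the paper states a common range for all experiments. They also give no sequencing batch, so that a batch which follows the group cannot be told apart from it. Total counts were 7805544 to 9697777 per library.

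A ribosome holds 1 copy of most of these proteins around its ribosomal RNA. The small subunit reads the mRNA, the large subunit joins the amino acids, and the stalk recruits the elongation factors. Ribosomal protein mRNAs begin with a C followed by an unbroken run of C and T (the 5′ terminal oligopyrimidine tract, TOP), through which mTORC1 and LARP1 control their translation, and their genes are transcribed at high rates in growing cells. In blood cell formation they are known through Diamond-Blackfan anemia and the 5q- syndrome, in which a single ribosomal protein gene is lost or mutated.

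The sequence around the annotated start sites was searched for features of the family. Promoters of 300 bases (250 before and 50 after the RefSeq start, GRCm38.p6) were at hand for 62 of the 82 members. A run of at least 5 C or T that began within 5 bases of the annotated start was found in 25 of the 62 members (40.3%), against 22.2% of all 27025 promoters and 22.2% of the 9315 promoters of tested genes. When runs that began further upstream and reached into these bases were included, the numbers were 34 of 62 (54.8%), 32.9% and 32.8%. The annotated start was not measured in these cells. Of the 12 promoters of members that rose in aggressive AML 4 held a run that began there, and of the 50 others 21 did. The windows below reach from 15 bases before the start to 15 bases from it onwards, and were chosen to set members that rose (Rpl14, Rps10, Rps26, Rpl10a) beside members that were not called (Rps6, Rpl27a, Rplp2). Capitals mark the longest C or T run with a base within 5 bases of the start, as far as the window reaches. The runs of Rpl14 and Rpl10a begin further upstream and are not among the 25.
Rpl14 (chr9:120571502-120571531, plus strand): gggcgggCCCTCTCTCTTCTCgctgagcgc
Rps10 (chr17:27635230-27635259, minus strand): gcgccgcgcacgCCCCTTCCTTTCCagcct
Rps26 (chr10:128626492-128626521, minus strand): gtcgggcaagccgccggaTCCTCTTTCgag
Rpl10a (chr17:28328456-28328485, plus strand): gtggcgCCCCCCCagcggccgcaaactgca
Rps6 (chr4:86857353-86857382, minus strand): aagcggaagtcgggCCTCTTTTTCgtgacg
Rpl27a (chr7:109519180-109519209, plus strand): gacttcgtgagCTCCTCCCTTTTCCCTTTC
Rplp2 (chr7:141447636-141447665, plus strand): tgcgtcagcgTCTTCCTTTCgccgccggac

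A second feature was the 7 letters CCGGAAG, searched on both strands (CTTCCGG on the other), which form the core of many sites of ETS family factors. CTTCCGG itself contains a short pyrimidine run, so the searches can overlap. The letters were present in 24 of the 62 member promoters (38.7%), in 9.14% of all promoters and in 19.3% of those of tested genes. Among the promoters of members that rose, 5 of 12 held them, and among the others 19 of 50. The examples lie upstream of the start, with the letters in capitals, and come from 1 member that rose (Rps10), from Rps21, which holds them at 2 places, and from Rps6.
Rps10 (chr17:27635256-27635284, minus strand): agccgcgcagcCCGGAAGagacgctgcgc
Rps21 (chr2:180257280-180257308, plus strand): ctttctttgcaCCGGAAGcggaagttaaa
Rps21 (chr2:180257342-180257370, plus strand): agtaccctgacCCGGAAGcacttaccgag
Rps6 (chr4:86857441-86857469, minus strand): ttaatctacgcCCGGAAGtaacgcccctc

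The ribosomal protein genes that changed were all higher in aggressive AML, by a small amount. Of the 82 members, 20 rose and 0 fell in the edgeR quasi-likelihood test (adjusted p under 0.05 over all 12494 tested genes), while 62 did not pass. Among all tested genes 8.15% rose and 10.2% fell. The fold change was above 0 in 78 members, and the median log2 fold change was 0.19 (1.14-fold), against 0.0004 over all tested genes. The libraries of the groups were fully separated in 17 members, each time with the higher values in aggressive AML, beside 9.76% of all genes that were separated in that direction and 12.0% in the other. At an unadjusted p under 0.05 there were 35 members higher and 0 lower, beside 15.3% and 17.2% of all tested genes. DESeq2 and limma also called 0 members lower, with 23 and 20 higher, beside 9.29% and 7.88% of all tested genes. In bulk RNA, more transcript per cell and a larger share of cells with high expression cannot be told apart.

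How many members passed depended on single libraries. With new AML replicate 1, 2, 3 or 4 left out, the count was 10, 7, 25 and 10 in turn, and with aggressive AML replicate 1, 2, 3 or 4 left out it was 9, 13, 11 and 24. The share of all tested genes that rose also moved, to 6.18%, 5.20%, 8.50% and 5.75% without a new AML library and to 6.39%, 6.15%, 7.28% and 8.62% without an aggressive AML library. The median of the members stayed between 0.16 and 0.23 in these 8 fits. The members are short genes, with a median transcript of 680.5 bases against 2658 for the tested genes with a known length. When the trend of expression with transcript length and GC content was removed from each library, 15 members were called higher and 2 lower (Rplp2 and Rps21). In this fit 1107 of 11887 genes were higher (9.31%) and 1186 lower. The median of the members was 0.09, so that the size of the shift depends on this choice.

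**Figure D1:**
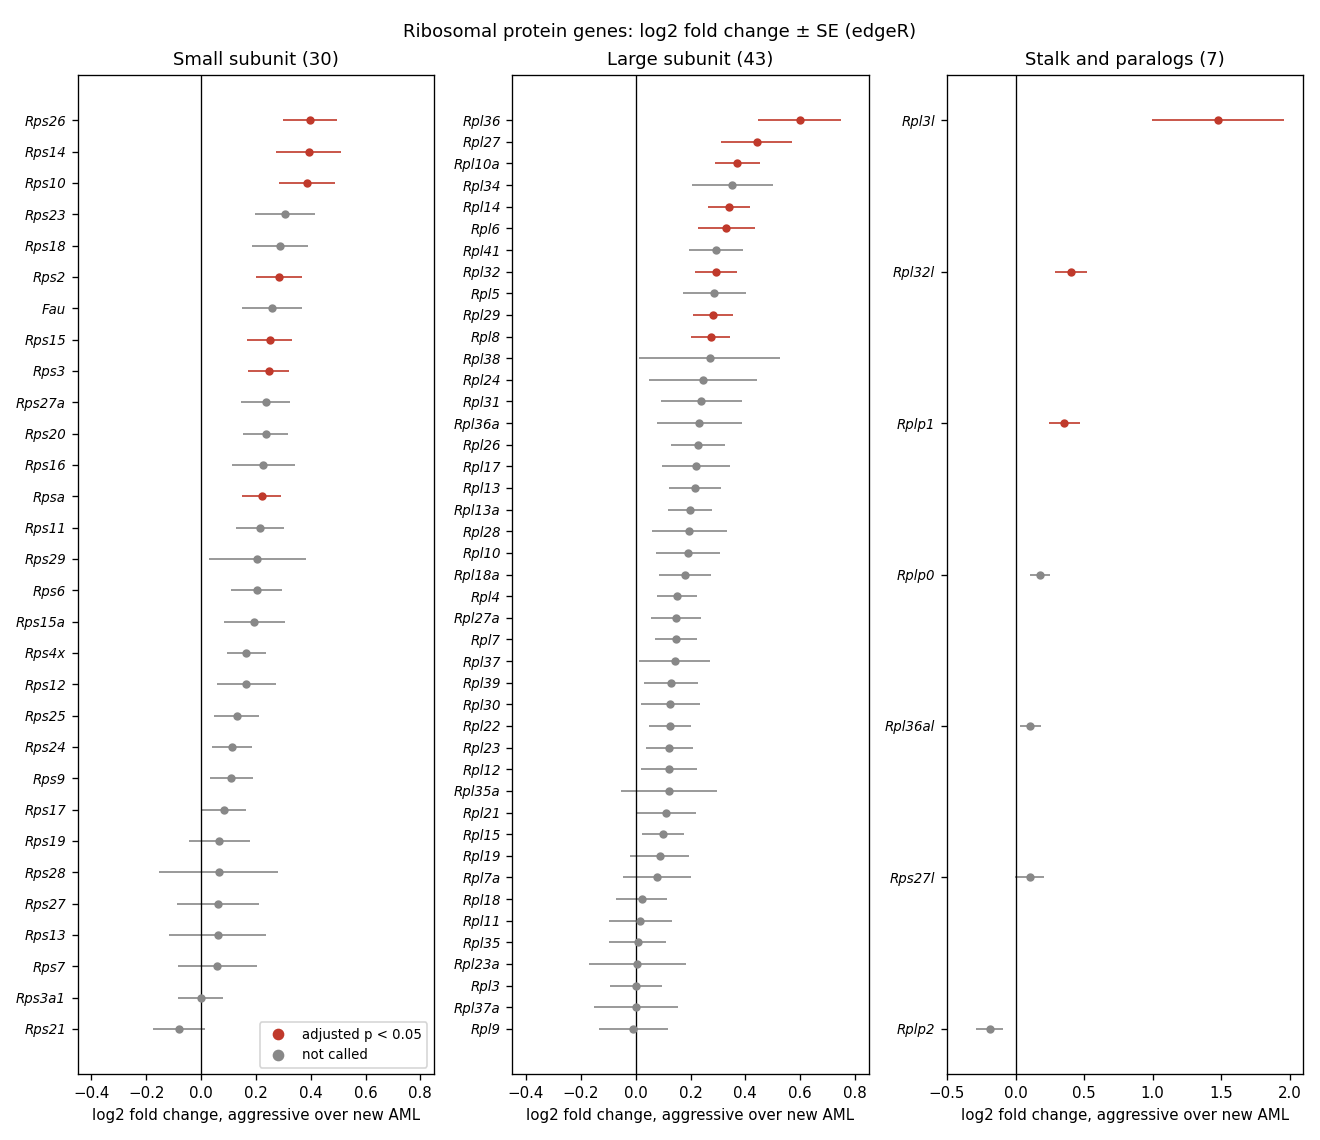
Log2 fold change (aggressive over new AML, x axis) with its SE for 80 of the 82 members, in panels by place in the ribosome, with members at an adjusted p under 0.05 in red (the right panel has a wider scale). Nearly all points lie to the right of 0, and the 4 below it are Rplp2, Rps21, Rpl9 and Rps3a1.

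The family as a whole held a larger share of the counts in aggressive AML. The 82 members took 2.48%, 2.51%, 2.69% and 2.44% of the counts in new AML replicates 1 to 4 and 3.11%, 2.86%, 3.07% and 2.70% in aggressive AML replicates 1 to 4. The means were 2.53% ± 0.108 (SD, n = 4) and 2.94% ± 0.190 (SD, n = 4), a ratio of 1.16. The groups did not overlap, but new AML replicate 3 and aggressive AML replicate 4 were nearly equal. The same libraries stood at the ends of their groups gene by gene. New AML replicate 3 was the highest of its group in 54 of the 82 members and new AML replicate 4 the lowest in 43, while aggressive AML replicate 1 was the highest of its group in 40 and aggressive AML replicate 4 the lowest in 57. When each member was centred on its mean over the 8 libraries, the median over the members on the log2 scale was -0.13, -0.09, 0.02 and -0.17 in new AML and 0.15, 0.08, 0.15 and -0.03 in aggressive AML, so that aggressive AML replicate 4 lay below new AML replicate 3.

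**Figure D2:**
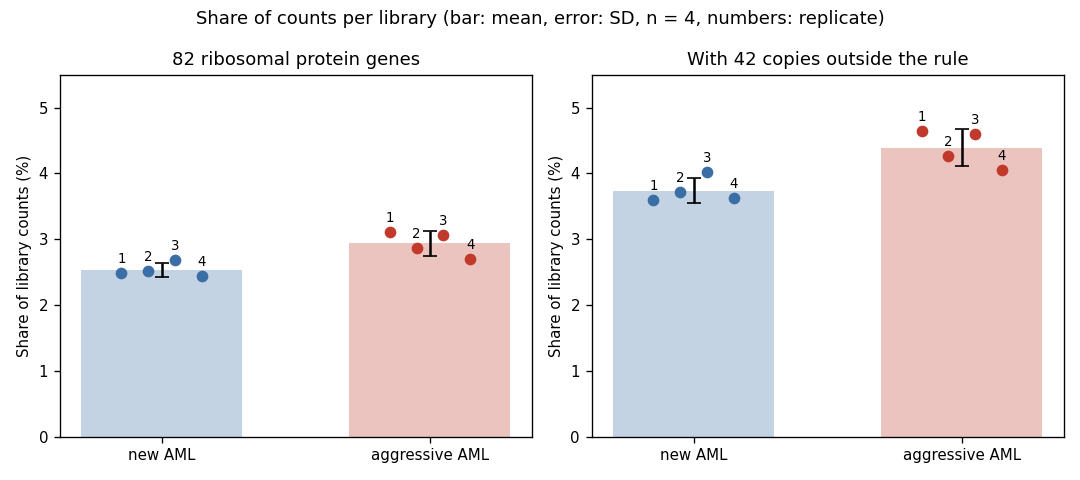
Share of the library counts (%) held by the 82 members (left) and by the members with 42 copies outside the rule (right), for each library (points, numbered by replicate) with the group mean (bar) and SD (n = 4). The lowest aggressive AML library (2.70%) lies just above the highest new AML library (2.69%).

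The shift is shown first in 6 members with small adjusted p. Values are CPM, counts scaled to a common library size with the TMM factor applied, in replicates 1 to 4, and positions are those of GENCODE M21 on GRCm38. Rpl10a (chromosome 17, 28328471 to 28331033), a protein of the mobile arm of the large subunit beside the exit site of the tRNA, had 109, 114, 115 and 108 CPM in new AML and 161, 150.5, 129 and 136 CPM in aggressive AML. Every aggressive AML library was above every new AML library (log2 fold change 0.37, SE 0.08, adjusted p = 0.00556). Rpl14 (chromosome 9, 120571444 to 120574654), of the large subunit, had 388, 364, 375 and 334 CPM and 499.8, 443, 489.6 and 418 CPM in the same order. Its groups were likewise apart (log2 fold change 0.34, SE 0.08, adjusted p = 0.00668).

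Rps26 (chromosome 10, 128624534 to 128626747) lies at the exit of the mRNA channel and is mutated in some families with Diamond-Blackfan anemia. It had 275, 309.7, 360.3 and 262 CPM in new AML and 403, 370.0, 447 and 373 CPM in aggressive AML. New AML replicate 3 came close to the lowest aggressive AML library (log2 fold change 0.40, SE 0.10, adjusted p = 0.0107). Rpl36 (chromosome 17, 56613416 to 56614243) had 42.8, 43.5, 43.6 and 32.8 CPM and 77.4, 71.1, 50.3 and 47.7 CPM. It had the largest fold change of the canonical members, with aggressive AML replicates 1 and 2 far above replicates 3 and 4 (log2 fold change 0.60, SE 0.15, adjusted p = 0.0124). Of the 31-base words of Rpl36, 94.1% occur in other transcripts, and its copy Gm4604 had 336 CPM in new AML. With the counts of this copy added, the log2 fold change was 0.45 (edgeR, adjusted p = 0.00783) and the groups overlapped. Rpl29 (chromosome 9, 106429454 to 106431568), also of the large subunit, had 489, 475, 545 and 504 CPM and 649, 586, 636 and 576 CPM. The groups did not overlap (log2 fold change 0.28, SE 0.07, adjusted p = 0.0129), but without new AML replicate 2 the adjusted p was 0.0598.

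Rpl32 (chromosome 6, 115805505 to 115808747) is an abundant member, with 1016, 1084, 1117 and 944 CPM in new AML and 1317, 1247, 1369.8 and 1162 CPM in aggressive AML. Its groups were apart (log2 fold change 0.29, SE 0.08, adjusted p = 0.0150), its exons overlap annotated exons of Cand2 and Snora7a, and its call was lost when the trend with length and GC content was removed (adjusted p = 0.113). Across the 20 other settings Rpl10a, Rpl14, Rps26 and Rpl36 were called in each, and Rpl29 and Rpl32 in 19.

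**Figure D3:**
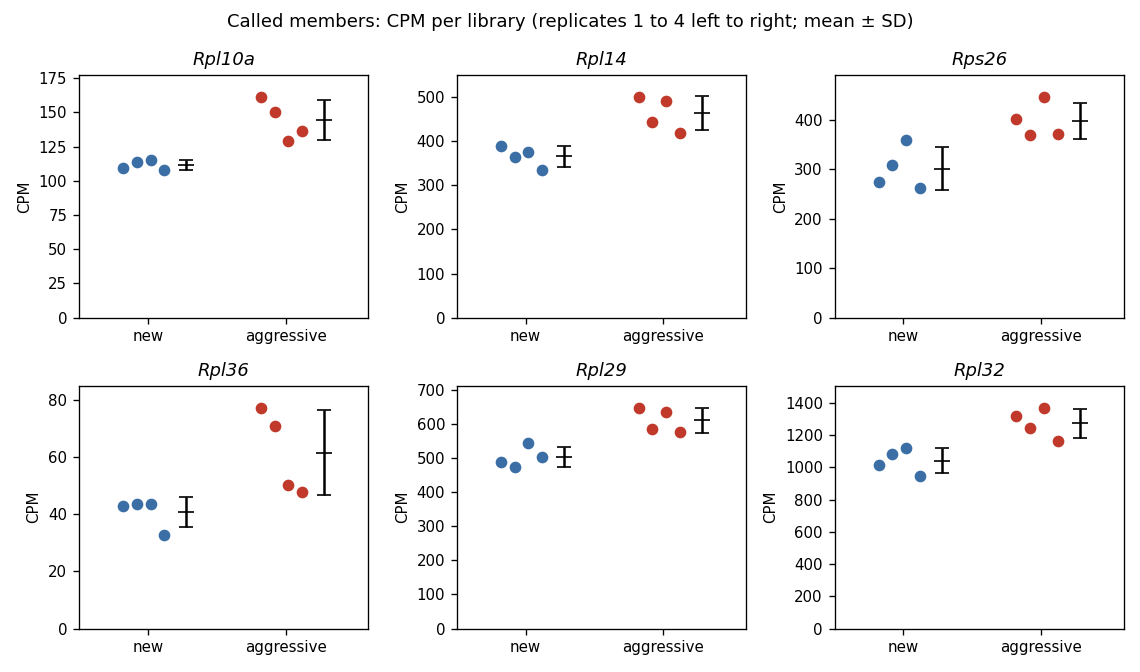
CPM per library (y axis from 0, replicates 1 to 4 from left to right in each group) for the same 6 members, with the mean and SD (n = 4) beside the points. In each panel all aggressive AML points lie above all new AML points.

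Another 12 members that rose were spread over both subunits. In the small subunit they were Rps10 (29.98 ± 2.56 CPM in new AML and 39.3 ± 2.27 CPM in aggressive AML, log2 fold change 0.39, SE 0.10, adjusted p = 0.0157), another Diamond-Blackfan anemia gene, and a set of abundant genes. Rps2 and Rps3, which line the entrance of the mRNA channel, rose from 677 to 824 CPM (log2 fold change 0.28, SE 0.08, adjusted p = 0.0266) and from 1895 to 2248 CPM (log2 fold change 0.25, SE 0.07, adjusted p = 0.0322). Rps14, the gene of the 5q- syndrome, rose from 513 to 674 CPM (log2 fold change 0.39, SE 0.12, adjusted p = 0.0311), with 626 CPM in new AML replicate 3, above the lowest aggressive AML library (539 CPM). Rpsa, first described as a laminin receptor precursor, rose from 533 to 621 CPM (log2 fold change 0.22, SE 0.07, adjusted p = 0.0390), and Rps15, of the head of the small subunit, from 910.3 to 1083 CPM (log2 fold change 0.25, SE 0.08, adjusted p = 0.0463). In the large subunit, Rpl8, which lies close to the catalytic centre, rose from 1714 to 2072 CPM (log2 fold change 0.27, SE 0.07, adjusted p = 0.0152). Rpl27 rose from 28.8 to 39.1 CPM (log2 fold change 0.44, SE 0.13, adjusted p = 0.0288) and Rpl6 from 237 to 298 CPM (log2 fold change 0.33, SE 0.10, adjusted p = 0.0392).

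The remaining 3 of these 12 were the stalk protein Rplp1 and a pair of paralogs. Rplp1 rose from 871 to 1115 CPM (log2 fold change 0.36, SE 0.11, adjusted p = 0.0376). Rpl32l, an intronless relative of Rpl32 on chromosome 10, rose from 130.2 to 172 CPM (log2 fold change 0.40, SE 0.12, adjusted p = 0.0253), and 52.6% of its 31-base words occur in other transcripts. Rpl3l, a paralog of Rpl3 known from heart and skeletal muscle, was near the floor of the table, with 1.13, 1.19, 0.558 and 0.446 CPM in new AML and 0.964, 1.77, 4.41 and 2.28 CPM in aggressive AML. These groups overlapped (log2 fold change 1.47, SE 0.48, adjusted p = 0.0450). Leaving out aggressive AML replicate 3 gave an adjusted p of 0.152, and limma on log2(CPM + 1) gave a log2 fold change of 0.80 (adjusted p = 0.0661). Of the 20 members that rose, 13 had groups that did not overlap, beside 9.76% of all tested genes that were separated in this direction. The overlap and the calls were read from the same values, so this count adds no separate support. Leaving out single libraries ended the call of each of these 12 genes at least once, at an adjusted p of up to 0.152. With Rpl3l set aside, the log2 fold changes of the members that rose ran from 0.22 to 0.60, that is from 1.17-fold to 1.51-fold.

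By subunit, 9 of 32 small subunit members rose (median log2 fold change 0.21), 8 of 43 large subunit members (median 0.18), 1 of 3 stalk members (median 0.18) and 2 of 4 paralogs (median 0.26), and 0 fell in each. Over all tested genes 8.15% rose and 10.2% fell. With the trend of length and GC removed, 8 small subunit members, 6 large subunit members, 0 stalk members and 1 paralog rose, beside 9.31% of all genes. In that fit 1 small subunit member and 1 stalk member fell, beside 1186 of 11887 genes. By level, 15 of the 37 members with a mean of at least 100 CPM rose, where 10.3% of all genes at this level did, and 5 of the 45 members under 100 CPM rose, where 7.59% did. The medians of these sets were 0.21 and 0.17. Across the 82 members, the fold change and the mean CPM had a Spearman correlation of 0.21, a description over genes that share the 8 libraries. The SE is larger for genes with few counts, which limits what could be called among the lower members.

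The stalk proteins differed among themselves. Rplp0, on which the stalk is built, had 1477, 1560.0, 1663 and 1599 CPM in new AML and 1836, 1777, 1892 and 1625 CPM in aggressive AML (log2 fold change 0.18, SE 0.07, adjusted p = 0.0927). Rplp1 and Rplp2, the acidic proteins that pair on Rplp0, did not run in parallel. Rplp1 had 799, 871, 1066 and 748 CPM and 1266, 1053, 1206 and 935 CPM, with aggressive AML replicate 4 below new AML replicate 3. Rplp2 had 131, 103, 99.4 and 98.6 CPM and 91.7, 100.2, 101 and 87.3 CPM and the lowest fold change of all members (log2 fold change -0.19, SE 0.10, adjusted p = 0.204). Its high value in new AML replicate 1 set much of this difference, since without that library the log2 fold change was -0.08. The exons of Rplp2 overlap Snora52 in the annotation, and 81.1% of its 31-base words occur in other transcripts.

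Besides Rplp2, the members farthest from the direction of the family were Rps21, Rpl9 and Rps3a1, none of which was called. Rps21 had 63.1, 60.9, 66.9 and 60.4 CPM in new AML and 63.5, 61.0, 63.0 and 50.3 CPM in aggressive AML (log2 fold change -0.08, SE 0.09, adjusted p = 0.589), with aggressive AML replicate 4 the lowest of the 8. Rpl9 had means of 31.4 and 31.2 CPM (log2 fold change -0.01, SE 0.13, adjusted p = 0.973) and Rps3a1 of 108 and 108 CPM (log2 fold change -0.0004, SE 0.08, adjusted p = 0.998). The sign of Rpl9 turned in 6 of 20 other settings and that of Rps3a1 in 11.

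Rpl5, Rpl11 and Rpl23 are among the ribosomal proteins that bind the p53 inhibitor MDM2 when they are not built into ribosomes, and these 3 did not pass the test. Rpl5 had 23.6 ± 1.84 CPM in new AML and 28.8 ± 3.17 CPM in aggressive AML (log2 fold change 0.29, SE 0.12, adjusted p = 0.0999), and its exons overlap those of Fam69a. Rpl11 had 21.5 ± 1.52 CPM in new AML and 21.7 ± 1.49 CPM in aggressive AML (log2 fold change 0.02, SE 0.11, adjusted p = 0.936), and its sign turned in 6 of 20 other settings. Rpl23 had 70.4 ± 4.79 CPM in new AML and 76.6 ± 5.45 CPM in aggressive AML (log2 fold change 0.12, SE 0.09, adjusted p = 0.342). The row of Rpl23 was far below that of its copy Gm9794, which is taken up again with the copies. Rps6, the substrate of the S6 kinases, had 186 ± 18.7 CPM in new AML and 215 ± 23.5 CPM in aggressive AML (log2 fold change 0.20, SE 0.09, adjusted p = 0.147). Rps19, the gene most often mutated in Diamond-Blackfan anemia, had 53.2 ± 7.79 CPM in new AML and 55.7 ± 5.01 CPM in aggressive AML (log2 fold change 0.07, SE 0.11, adjusted p = 0.722), and its sign turned in 2 other settings. Rpl22, which is needed for T cell development, had 534 ± 49.7 CPM in new AML and 582 ± 30.6 CPM in aggressive AML (log2 fold change 0.13, SE 0.08, adjusted p = 0.281), and its sign turned in 1.

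Rpl38, known from the control of Hox mRNA translation in mouse embryos, had only 4.52 ± 1.42 CPM in new AML and 5.45 ± 1.22 CPM in aggressive AML (log2 fold change 0.27, SE 0.26, adjusted p = 0.499). Fau, in which a ubiquitin-like protein is joined to the ribosomal protein, had 24.1, 21.9, 23.3 and 19.6 CPM in new AML and 25.9, 28.3, 26.2 and 26.2 CPM in aggressive AML. Its groups did not overlap, but the difference did not pass (log2 fold change 0.26, SE 0.11, adjusted p = 0.114). Rps27 had 12.8 ± 1.91 CPM in new AML and 13.4 ± 0.798 CPM in aggressive AML (log2 fold change 0.06, SE 0.15, adjusted p = 0.805), and its paralog Rps27l, a p53 target, had 164 ± 29.97 CPM in new AML and 176 ± 8.10 CPM in aggressive AML (log2 fold change 0.10, SE 0.11, adjusted p = 0.533). The sign of Rps27 turned in 2 other settings and that of Rps27l in 1. The 3 further members with separate groups that were not called were Rps23 (adjusted p = 0.0618), Rps27a (adjusted p = 0.0812) and Rps4x (adjusted p = 0.115).

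The levels of the members were very unequal, although a ribosome takes up most of the proteins in equal number. Mean CPM over the 8 libraries ran from 4.98 for Rpl38 to 3011 for Rpl4 among the canonical members, a ratio of 604. The 5 most abundant rows held 37.2% of the members' CPM and the 10 most abundant 58.0%. Per kilobase of transcript, the highest levels were those of Rpl32 (2238 CPM per kilobase), Rpl8 (2224) and Rpl41 (2215), which encodes a very short peptide and just missed the threshold (log2 fold change 0.29, SE 0.10, adjusted p = 0.0512). The lowest canonical levels per kilobase were those of Rpl5 (12.8), Rpl38 (14.4) and Rpl24 (13.998). Rpl24 had 8.67 ± 0.806 CPM in new AML and 10.3 ± 2.69 CPM in aggressive AML (log2 fold change 0.24, SE 0.20, adjusted p = 0.418). The length was that of the shortest principal coding transcript in GENCODE M21, which is long for a few members such as Rpl5 (2045 bases), Rps20 (3706 bases) and Rps3 (1908 bases), so that their level per kilobase is understated if shorter forms are made.

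Several members have copies elsewhere in the genome whose rows held more counts than their own. Of the 82 members, 58 share at least 50% of their 31-base words with other annotated transcripts. By a shared content of at least 100 such words and at least 30% of the words of the copy, 42 rows outside the rule were copies of 32 members, and 21 of the 41 copies that were tested had a higher mean in new AML than the member itself. These copies belong to 19 members, 13 of them among the 45 members with a mean under 100 CPM. Rps27 had 12.8 CPM in new AML and its copy Rps27rt 737 CPM. Rpl34 had 21.3 CPM and Rpl34-ps1 756 CPM, Rpl24 had 8.67 CPM and Gm9385 531 CPM, and Rpl23 had 70.4 CPM and Gm9794 1153 CPM. The setting for reads that match several places was not given, so a member row, a copy row or their sum may hold the reads of 1 transcript, and the level of such a member is uncertain.

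The copies shifted in the same direction. Of the 41 tested copies, 13 rose and 0 fell in the edgeR test, beside 8.15% and 10.2% of all tested genes, with a median log2 fold change of 0.23. At an unadjusted p under 0.05, 20 were higher and 0 lower, beside 15.3% and 17.2%, and DESeq2 and limma called 0 lower. With the trend of length and GC removed, only 2 copies rose and 0 fell, a smaller share than the 9.31% of all genes that rose there. The median of the copies was then 0.09. Rps27rt rose from 737 to 972 CPM (log2 fold change 0.40, SE 0.12, adjusted p = 0.0288), Rpl34-ps1 from 756 to 973 CPM (log2 fold change 0.36, SE 0.10, adjusted p = 0.0177), Gm9794 from 1153 to 1442 CPM (log2 fold change 0.32, SE 0.08, adjusted p = 0.0121) and Rpl14-ps1 from 898 to 1151 CPM (log2 fold change 0.36, SE 0.07, adjusted p = 0.00336). After the counts of 43 copies (these 42 and Rpl32l) were added to 33 members, 27 of 81 members rose and 0 fell. In that fit 8.14% of all genes rose, and the median of the members was 0.22. Of those 33 members, 5 had risen alone and 13 rose with their copies. Rpl23 then had a log2 fold change of 0.31 (adjusted p = 0.0139) and Rps27 of 0.39 (adjusted p = 0.0298), while Rpl11 stayed at 0.04 (adjusted p = 0.755) and Rps19 at 0.09 (adjusted p = 0.569). With the copies, the family held 3.60%, 3.72%, 4.02% and 3.62% of the counts in new AML and 4.65%, 4.27%, 4.60% and 4.05% in aggressive AML. Across the 82 members, the share of words found elsewhere had a Spearman correlation of -0.05 with the fold change, again a description over genes.

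**Figure D4:**
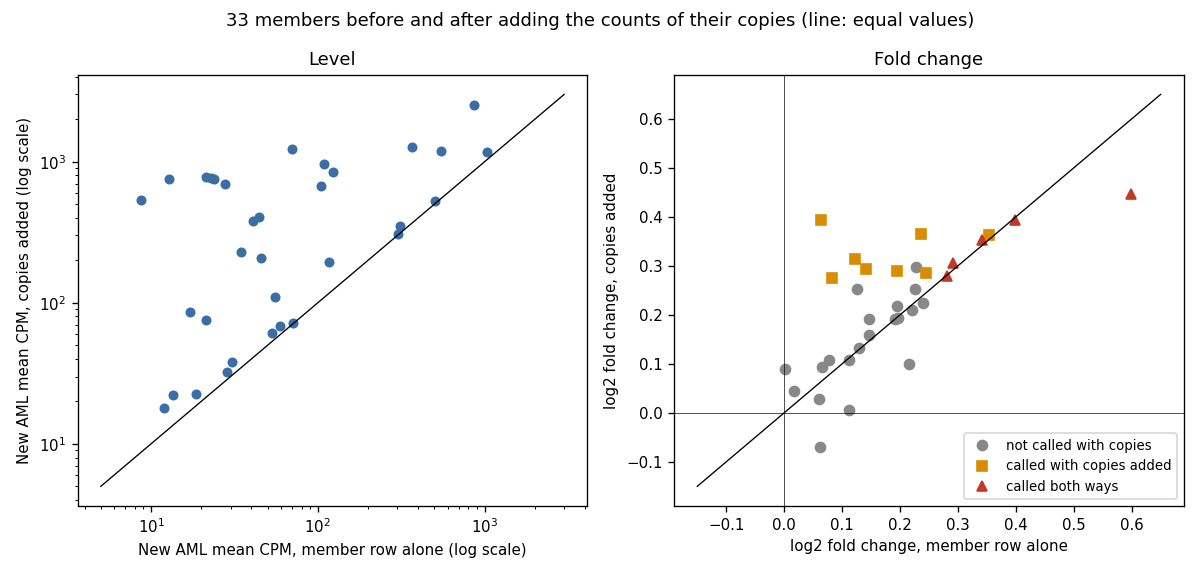
New AML mean CPM (left, both axes log scale) and log2 fold change (right) of 33 members before (x axis) and after (y axis) the counts of their copies were added, with a line at equal values. Rows far above the line on the left gained most of their counts from copies, and 8 members (squares) passed the threshold only after the addition.

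Other genes of the ribosome cycle were set beside the members, and their counts are to be read against the 8.15% of all tested genes that rose and the 10.2% that fell. The 77 mitochondrial ribosomal protein genes, which build the separate ribosome of the mitochondrion, had a median of 0.09, with 5 higher (6.49%) and 0 lower in the edgeR test (11 higher and 1 lower at an unadjusted p under 0.05, and 0 lower by DESeq2 and limma). Of 49 ribosome assembly factors, 12 rose (24.5%) and 0 fell, with a median of 0.20, led by Nmd3, the adapter that takes the large subunit out of the nucleus (56.9 ± 5.64 CPM in new AML and 82.1 ± 12.1 CPM in aggressive AML, log2 fold change 0.53, SE 0.11, adjusted p = 0.00325). Of 23 other genes with TOP mRNAs, 7 rose (30.4%) and 0 fell, with a median of 0.18, led by the elongation factor subunit Eef1b2 (674 ± 17.5 CPM in new AML and 837 ± 66.7 CPM in aggressive AML, log2 fold change 0.31, SE 0.07, adjusted p = 0.00682) and with Eef1a1, Eef2, Npm1, Rack1, Naca and Hnrnpa1. Among the assembly factors and other TOP genes, 0 were lower at an unadjusted p under 0.05 or by DESeq2 or limma. With the trend of length and GC removed, the median of the members was 0.09 and that of the mitochondrial ribosomal protein genes 0.06. The assembly factors then had a median of 0.21 and the other TOP genes of 0.14.

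Of 14 genes of the RNA polymerase I machinery, which transcribes ribosomal RNA, 2 rose (14.3%) and 0 fell (median 0.10), led by Taf1b (0.56, adjusted p = 7.97e-04), and of 28 initiation factors 5 rose (17.9%) and 0 fell (median 0.12), led by Eif2b3 (0.57, adjusted p = 0.00623), with 0 lower also at an unadjusted p under 0.05 and by DESeq2 and limma. The 19 genes of the mTORC1 and TOP control pathway had a median of -0.14, with 1 higher (5.26%) and 3 lower (15.8%). Eif4ebp1, an inhibitor of cap-dependent initiation, rose from 48.3 to 71.0 CPM (log2 fold change 0.55, SE 0.10, adjusted p = 0.00129). Eef2k, the kinase that inhibits elongation factor 2, fell from 212 to 155 CPM (log2 fold change -0.45, SE 0.10, adjusted p = 0.00571), and Mtor and Eif4ebp2 also fell (-0.30, adjusted p = 0.0148, and -0.32, adjusted p = 0.0180). Of 14 genes listed as chaperones and importers of ribosomal proteins 2 rose, led by Tsr2, which carries Rps26 (0.56, adjusted p = 0.00516). Ap5z1, which was on this list but is not known as a chaperone or importer of ribosomal proteins, fell (-0.29, adjusted p = 0.0329). The 10 genes of the Myc network had a median of -0.27, with 2 above 0 and 8 below. Of these, Mxi1 rose (0.45, adjusted p = 0.00499), and Mycl (-3.33, adjusted p = 1.02e-04) and Max fell. Mycl was near the floor, with a mean of 4.67 CPM in new AML and 0.465 CPM in aggressive AML.

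**Figure D5:**
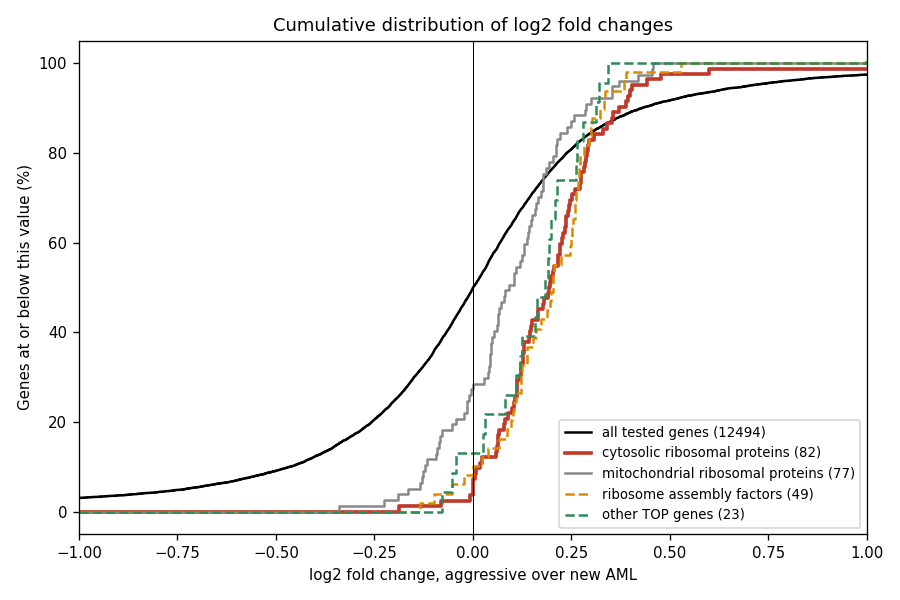
Cumulative share of genes (%, y axis) at or below a log2 fold change (x axis, cropped at -1 and 1) for all tested genes, the 82 members and 3 related lists. The curve of the members crosses 50% at 0.19 and that of all tested genes at 0.0004.

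The labelled cell type was checked with markers of leukemic progenitors and of other cells. All 12 genes of the leukemia and progenitor list were tested, 4 rose, led by Ctsg (0.51, adjusted p = 6.36e-04), and 3 fell, led by Hoxa10 (-0.59, adjusted p = 7.85e-05). The markers of mature neutrophils moved against the members, with 8 of 11 lower and 0 higher (edgeR, and 0 higher also at an unadjusted p under 0.05 and by DESeq2 and limma), led by Ltf (-3.07, adjusted p = 7.58e-07), and a summed level of 328 to 495 CPM in new AML and of 169 to 221 CPM in aggressive AML. Of 8 tested erythroid genes 2 fell (Slc4a1, -1.65, adjusted p = 0.0301, and Hba-a1), with summed levels of 135 to 205 and 120 to 152 CPM, and of 4 tested macrophage genes Adgre1 fell (-0.83, adjusted p = 0.00245), with summed levels of 81.7 to 144 and 55.5 to 90.3 CPM. Of 10 T cell genes Bcl11b was tested and rose in the edgeR test (1.20, adjusted p = 0.0427) but not by DESeq2 or limma. The other 9, among them Cd3e and Cd4, had no row among the counts used here. Of 7 B cell genes 2 were tested and Cd22 fell (-4.83, adjusted p = 1.85e-05), near the floor at means of 3.81 CPM in new AML and 0.117 CPM in aggressive AML. Of 7 NK cell genes 2 had a row and were tested, and Nkg7 rose (0.70, adjusted p = 0.0225). The part of these cells in the shift of the ribosomal protein genes was not tested. Of 21 proliferation genes Mki67 fell (-0.29, adjusted p = 0.0247) and the other 20 were not called, with a median of 0.04.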

How the data were processed

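Polyadenylated RNA of GFP+ leukemia cells was sequenced from both ends, and the authors aligned the reads to mm10 with HISAT2, used Rsubread for the counts per gene and dropped genes under 1 CPM. The deposited table, although named for CPM, holds whole-number read counts with a different total in each library. The annotation, the strand setting and the treatment of reads with several matches were not given in the sources used here, so genes that overlap or have copies are uncertain. Groups and replicate numbers (1 to 4) came from the labels, which call the samples biological replicates.

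The edgeR quasi-likelihood test (version 4.0.16, R 4.3.3) was run on the genes that reached 1 CPM in 4 or more libraries (12494 tested, 329 left out), with TMM scaling, the group as the only term, two-sided p-values and Benjamini-Hochberg adjustment over all tested genes at 0.05. It was tested on simulated data. Fold changes are aggressive over new AML. The common biological coefficient of variation was 0.118, and 1 count was worth 0.103 to 0.128 CPM. Replicate pairs differed by more than sampling noise (chi-square per degree of freedom 4.06 to 11.0), so no library was counted as a repeat. Alternatives were DESeq2 (version 1.42.0), limma (version 3.58.1), other scalings and filters, single libraries left out, a replicate block, a length and GC correction, and copies added to their member. The addition of all copies was chosen after seeing the data.

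The letters l1 in the rule for the members were read as an ending, since read anywhere they would also remove Rpl10 to Rpl19. The members and the lists were chosen with earlier results of these data known. Named one by one were the members that were called, the 4 farthest in the other direction, the 3 highest and lowest canonical members per kilobase, 15 members picked by role, and the called gene of each list with the smallest adjusted p in each direction. Other genes (Rps23, Rps27a, Rps4x and the copies named) were chosen after their values were seen. Promoters are from RefSeq (GRCm38.p6) and transcript lengths from GENCODE M21. Sequences on chromosome 18 and the single values of some members are not reported here.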

Additional observations from a re-analysis of the deposited data

Results flagged for a closer look

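Within groups of 4 libraries, 78 sets of values of the named members and of the family's share were examined for a library that stood far from the other 3 by Dixon's ratio at its 95% limit, and 5 did. Chance alone flags about 1 in 20 such sets.

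Rpl36 was 32.8 CPM in new AML replicate 4 against 42.8 to 43.6 CPM in the other 3. Rpsa was 494 CPM in new AML replicate 4 against 545 to 548 CPM. Rpl24 was 7.47 CPM in new AML replicate 4 against 8.92 to 9.15 CPM. Rplp2 was 131.0 CPM in new AML replicate 1 against 98.6 to 103 CPM. Fau was 28.3 CPM in aggressive AML replicate 2 against 25.9 to 26.2 CPM. In 3 of the 5 the library was new AML replicate 4, which was also the lowest of its group in 43 of the 82 members.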

How the results depend on the processing

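The number of members that rose was 20 in the edgeR test and between 15 and 27 in the settings that kept all 8 libraries. It ranged from 7 to 25 when single libraries were left out, with the median of the members at 0.16 to 0.23 and 0 members lower in each. The correction for length and GC gave 15 higher and 2 lower, where 9.31% of all genes were higher and 1186 of 11887 lower. Its median of the members was 0.086, further from the main value than the spread between libraries (0.08). The family's share rose by 0.40 percentage points, by 0.35 to 0.48 without single libraries and by 0.65 with the copies outside the rule added. Reading l1 anywhere in the name left 70 members, 18 of them higher, beside 8.15% of all tested genes.

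Samples with the same replicate number had weak correlations of their deviations (0.12, -0.02, -0.06 and 0.18), against -0.14 to 0.11 for different numbers. These values cannot settle whether the numbers pair the samples, and the main fit used no pairing. With the replicate block 20 members were called higher and 0 lower, beside 8.03% of all tested genes higher and 1364 of 12494 lower. The median of the members was 0.19.

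Reversed signs were confined to members that were not called, each with an adjusted p of at least 0.456 there. Rps3a1 was 0.0053 with DESeq2 size factors, 0.0020 with TMM without the ribosomal protein rows, 0.0036 without a filter, 0.017 with the 5 CPM filter, 0.0051 by DESeq2, 0.0026 with the replicate block and 0.00023 with all copies added. Rpl9 was 0.0098 with the 5 CPM filter and Rpl11 -0.0015 by limma voom. After correction for length and GC, Rpl11 was -0.055, Rps19 -0.0048, Rpl22 -0.066, Rps27 -0.12 and Rps27l -0.080. Without single libraries Rps3a1 ran from -0.051 to 0.054, Rpl9 from -0.082 to 0.063, Rpl11 from -0.019 to 0.064, Rps19 from -0.0051 to 0.16 and Rps27 from -0.032 to 0.14. The causes were not tested.

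Depth limits the low members: at 4.98 CPM the SE of Rpl38 was 0.26, against 0.07 for Rpl4.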
